A study of Mus musculus with 29 samples.

Results

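The comparison described here is lung of wild-type mice 8 h after saline set against lung of wild-type mice 4 h after saline, with no drug in either group. Its members are the arrays whose titles give wild type, vehicle and the time: 3 arrays at 8 h (numbered 37, 38 and 39) and 4 arrays at 4 h (33, 34, 35 and 36), which is 7 of the 29 arrays of the series, read over all 15351 genes measured. The series holds lung RNA of C57BL/6 mice, 6 to 8 weeks old, on single-colour Agilent arrays. It covers wild-type mice and mice without Klf15, a Krüppel-like transcription factor whose gene is a target of the glucocorticoid receptor, each given saline or the synthetic glucocorticoid dexamethasone at 2.5 mg/kg. Besides the pair of wild-type saline groups, this account uses knockout mice at 8 h (4 arrays) and 4 h (3 arrays) after saline, wild-type mice at 8 h (3 arrays) and 4 h (4 arrays) after dexamethasone, and knockout mice 4 h after dexamethasone (4 arrays). The labels describe the samples as biological replicates and do not give the clock time of injection or collection. Time since the injection and time of day therefore cannot be told apart.

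The circadian clock and adrenal glucocorticoid are known to move over hours without any drug. The circadian clock is a loop in which the factors BMAL1 (gene Arntl) and CLOCK switch on the period and cryptochrome genes, whose proteins then block them, while the nuclear receptors REV-ERB (Nr1d1, Nr1d2) and ROR (such as Rora) hold Arntl down or drive it. The adrenal glands release glucocorticoid in a daily rhythm and under the stress of handling, and the glucocorticoid receptor (Nr3c1) then raises a set of target genes in lung. In whole lung, fewer cells of a type and less RNA per cell cannot be told apart.

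Levels are log2 values of the processed signal, scaled so that the 75th percentile of each array is 0; a level of 0 is as bright as that percentile and a negative level is dimmer. They compare arrays for 1 gene and not genes with each other. Differences are 8 h minus 4 h on that log2 scale, with the standard error (SE) of the limma fit, and a gene is called at a Benjamini-Hochberg adjusted p under 0.05 over all genes. At 8 h the 75th percentile lay between 2410 and 3330 signal units and 79.9 to 88.5% of spots were well above background, against 2130 to 2720 units and 77.3 to 81.1% at 4 h. By mean signal, the 5117 dimmest genes had a median difference of 0.24, the 5117 in the middle -0.02 and the 5117 brightest -0.05. The part of that brightness-dependent shift in the counts was not tested directly. With each array's ratio of bright to dim probes of the same genes as a covariate, 123 genes were called higher and 48 lower. Without it there were 159 and 64, and 151 of these 223 calls were kept.

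At 8 h, 159 genes were called higher and 64 lower than at 4 h, which is 1.45% of the genes tested (1.04% higher, 0.417% lower). Among them, 16 rose and 4 fell at least 2-fold. Arrays of both times did not overlap for 157 of the 159 higher genes and for all 64 lower genes, beside 2260 of all 15351 genes. A call already selects for separated arrays, so a lack of overlap in a called gene is no separate support. The spread was estimated from all 29 arrays. From the 7 arrays alone, limma called 0 genes at an adjusted p under 0.05, with 2504 at an unadjusted p under 0.05 and a smallest adjusted p of 0.0879. The 7 arrays lay on 6 slides, of which 1 held both groups. With slide as a fixed block 207 genes were higher and 79 lower, and 143 of the 223 calls were kept. With each array scaled to its median instead of its 75th percentile, which moved the median of all genes by -0.14, the split turned to 28 higher and 72 lower. Leaving out array 39 of the 8 h group left 35 higher and 12 lower genes. Where a gene below lost its call under many other settings, their number is given beside it.

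**Figure D1:**
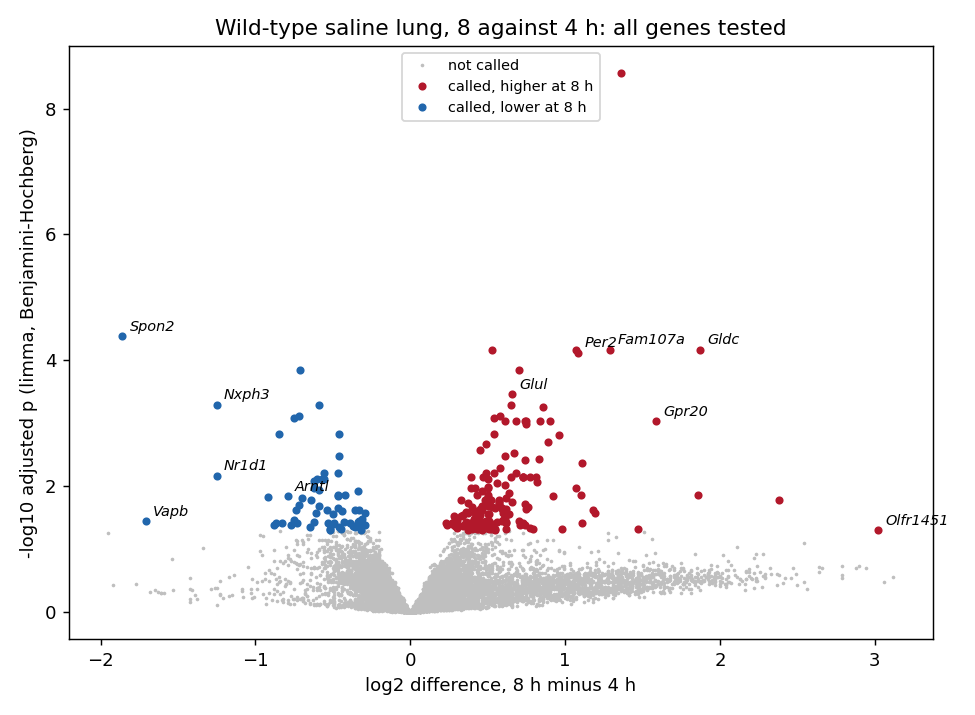
Each point is 1 gene, with the log2 difference between 8 h and 4 h saline in wild-type lung on the horizontal axis and the -log10 of the adjusted p on the vertical axis; called genes are coloured. Uncalled grey points reach further to the right than to the left.

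Of the 22 measured members of the 4 clock lists, 7 were called higher, among them Per2, Cry1, Per3, Hlf, Tef and Rora, and 2 lower, Arntl and Nr1d1, beside 1.45% of all genes. Npas2 and Rorb did not pass the filter on dim probes and were not tested. The core activator Arntl had levels of -2.48, -2.49 and -2.20 at 8 h, against -1.42, -1.33, -1.68 and -1.96 at 4 h. All 8 h arrays lay below all 4 h arrays, and Arntl fell by 0.79 (SE 0.164, 1.73-fold, adjusted p = 0.0142). Its partner Clock differed by -0.31 (SE 0.0957, adjusted p = 0.106), which did not pass the test.

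Among the repressors, Per2, a period gene, had levels of 1.16, 1.19 and 1.35 at 8 h, against -0.06, -0.07, 0.25 and 0.47 at 4 h. It was 2.12-fold higher at 8 h (1.08, SE 0.133, adjusted p = 7.55e-05) with no overlap. Per3 lay at -2.23, -2.20 and -2.28 at 8 h, against -3.02, -3.06, -2.94 and -2.88 at 4 h. The cryptochrome gene Cry1 lay at -1.96, -1.93 and -1.85 at 8 h, against -2.70, -2.97, -2.88 and -2.53 at 4 h. For both, each 8 h array was brighter than each 4 h array: Per3 rose by 0.74 (adjusted p = 0.00382) and Cry1 by 0.86 (adjusted p = 0.000548). A second, dimmer probe of Per2 showed a difference of 0.44, and a second, dimmer probe of Cry1 showed 1.99. With the dimmer probe both calls were lost, and that of Cry1 also with the mean of its probes. Per1, which is both a clock gene and a glucocorticoid target, had 2.35, 2.71 and 2.26 at 8 h, against 1.53, 1.67, 2.38 and 2.34 at 4 h, and these arrays overlapped (0.46, adjusted p = 0.236). Csnk1d (-0.14) and Ciart (0.65) did not pass the test either.

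In the loop of nuclear receptors, Rora had 0.87, 1.01 and 0.92 at 8 h, against 0.55, 0.54, 0.59 and 0.59 at 4 h. All 8 h arrays were brighter, and Rora rose by 0.37 (adjusted p = 0.0265). That call was lost under 11 other settings, among them slide as a fixed block and 6 of the 7 fits that left out 1 array. The REV-ERB gene Nr1d1 had 0.64, 0.89 and -0.30 at 8 h, against 1.85, 1.60, 1.83 and 1.34 at 4 h. All 8 h arrays were dimmer, array 39 the most, and Nr1d1 fell by 1.25 (SE 0.233, 2.37-fold, adjusted p = 0.00682), while 2 dimmer probes gave -1.11 and -0.46. Its paralog Nr1d2 differed by 0.22 (adjusted p = 0.329).

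The clock's output factors bind D-boxes and carry its timing to other genes. Tef had 3.93, 3.96 and 4.06 at 8 h, against 3.53, 3.37, 3.58 and 3.62 at 4 h, and rose by 0.46 (adjusted p = 0.0117). Hlf, of the same family, rose by 0.48 (adjusted p = 0.0162) with no overlap, a call lost under 5 other settings. Dbp had 5.21, 5.65 and 4.91 at 8 h, against 5.61, 5.70 and 5.87 on the 3 arrays at 4 h with a value, and was not called (-0.47, adjusted p = 0.159). Nfil3, which competes for the same sites, differed by -0.01 (adjusted p = 0.983).

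**Figure D2:**
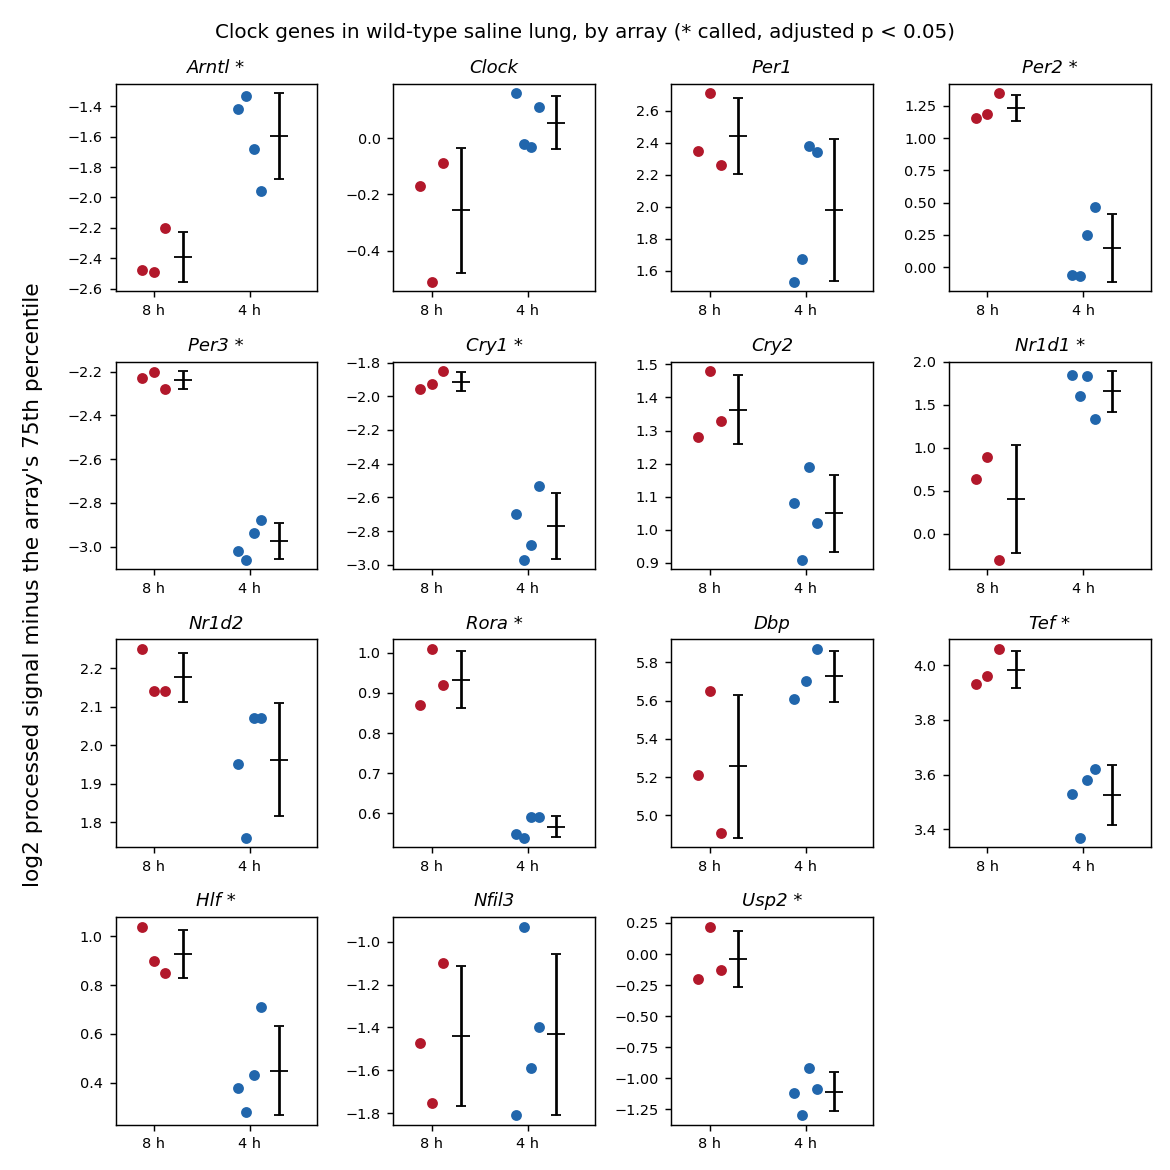
Levels of 15 clock and clock-output genes (log2 signal scaled to each array's 75th percentile) on each of the 3 arrays at 8 h and the 4 arrays at 4 h after saline, each panel with its own vertical axis; black marks are the mean and SD. Arntl and Nr1d1 lie lower at 8 h, and Per2, Per3, Cry1, Rora, Tef, Hlf and Usp2 lie higher, without overlap.

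Promoter windows of these genes are shown because the loop is known to act through 3 short motifs, and the genes above lie on both sides of it. Of 25 genes looked up (the clock lists and Klf15), 20 have a RefSeq promoter window, 29 windows in all, each running from 250 bases before to 50 after the start (GRCm38.p6). On both strands, the E-box CACGTG, through which BMAL1 and CLOCK act, was in 7 of the 29 windows, against 7.15% of all 32851 mouse windows. The D-box TTATGTAA was in 1, against 0.938%, and TAGGTCA, an element of ROR and REV-ERB, in 2, against 2.61%. Motifs are in capitals. Arntl (chr7:113207261-113207560, + strand) has TAGGTCA 30 bases after its start, Cry1 (chr10:85185005-85185304, - strand) an E-box 60 bases before it, and Tef (chr15:81802423-81802722, + strand) an E-box 127 bases before it. Per3 (chr4:151044616-151044915, - strand) has D-boxes 205 and 158 bases before its start, and Klf15 (chr6:90462326-90462625, + strand) has E-boxes 228, 172 and 3 bases before its start. The windows of Nr1d1, Rora and Hlf hold none of these letters, nor does another window of Arntl, and Per2 has no window. Per1, Ciart and Bhlhe41, which were not called, also have E-boxes. Nfil3, not called either, has TAGGTCA on the other strand. The 7 windows with an E-box belong to 6 genes. Each match is a description of sequence only.
Arntl: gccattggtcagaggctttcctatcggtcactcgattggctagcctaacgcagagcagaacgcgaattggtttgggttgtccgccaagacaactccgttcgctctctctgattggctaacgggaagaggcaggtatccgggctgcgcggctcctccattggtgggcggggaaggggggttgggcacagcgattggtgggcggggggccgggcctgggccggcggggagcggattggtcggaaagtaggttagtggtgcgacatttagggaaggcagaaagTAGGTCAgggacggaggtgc
Cry1: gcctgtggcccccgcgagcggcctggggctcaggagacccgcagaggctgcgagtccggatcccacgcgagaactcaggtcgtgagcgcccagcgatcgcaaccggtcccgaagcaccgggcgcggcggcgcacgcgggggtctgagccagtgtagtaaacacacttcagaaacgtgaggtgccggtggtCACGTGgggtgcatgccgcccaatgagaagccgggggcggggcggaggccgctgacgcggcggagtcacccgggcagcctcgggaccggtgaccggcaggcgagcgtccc
Tef: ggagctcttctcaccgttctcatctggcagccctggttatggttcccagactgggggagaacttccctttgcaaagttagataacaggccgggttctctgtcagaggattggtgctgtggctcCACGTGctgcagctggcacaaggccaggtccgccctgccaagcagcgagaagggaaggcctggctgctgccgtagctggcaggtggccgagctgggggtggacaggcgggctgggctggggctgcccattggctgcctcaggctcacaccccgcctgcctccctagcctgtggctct
Per3: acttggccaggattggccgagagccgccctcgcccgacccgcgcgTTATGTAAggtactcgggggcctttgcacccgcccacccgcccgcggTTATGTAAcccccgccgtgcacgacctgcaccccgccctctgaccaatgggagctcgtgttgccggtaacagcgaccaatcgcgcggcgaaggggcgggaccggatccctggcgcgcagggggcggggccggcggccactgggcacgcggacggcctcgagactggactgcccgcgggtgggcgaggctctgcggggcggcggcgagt
Klf15: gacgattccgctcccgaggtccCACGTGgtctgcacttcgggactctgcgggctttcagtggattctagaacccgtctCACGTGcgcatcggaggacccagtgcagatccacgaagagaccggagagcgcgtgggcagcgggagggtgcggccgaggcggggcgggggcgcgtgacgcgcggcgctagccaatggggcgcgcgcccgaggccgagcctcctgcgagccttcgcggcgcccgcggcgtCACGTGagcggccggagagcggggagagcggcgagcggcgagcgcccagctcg

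Of 18 measured genes known to cycle in many organs, 5 were called higher and 1 lower, beside 1.04% and 0.417% of all genes. Their median difference was 0.25, beside 0.01 over all genes, but 0.10 under median scaling and 0.14 without array 38. Usp2, a ubiquitin protease under clock control, had -0.20, 0.22 and -0.13 at 8 h, against -1.12, -1.30, -0.92 and -1.09 at 4 h, and was 2.10-fold higher (adjusted p = 6.75e-05). Wee1, a kinase that holds cells before mitosis, was 2.14-fold higher (adjusted p = 0.0138), and Cys1, a protein of the primary cilium, 2.27-fold higher (adjusted p = 0.0234). Arrays of both times did not overlap for these 3 genes. Fmo2, the main flavin monooxygenase of mouse lung, rose by 0.84 (adjusted p = 0.000924), and Lonrf3 rose by 0.52 with overlapping arrays (adjusted p = 0.0478). The glycogen-targeting subunit gene Ppp1r3c fell by 0.47 (adjusted p = 0.0224). The calls of Lonrf3, Ppp1r3c and Cys1 were lost under 14, 7 and 6 other settings, for Lonrf3 also with slide as a fixed block.

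Of 32 measured genes known to be induced by glucocorticoid, 8 were called higher at 8 h (1.04% of all genes were) and 0 lower, 14 were higher and 0 lower at an unadjusted p under 0.05 (17% of all genes passed it in either direction), and 26 had a positive difference, with a median of 0.37 (0.23 under median scaling), beside 0.01 over all genes. Fam107a, an actin-binding stress-response gene, had 0.20, 0.36 and 0.47 at 8 h, against -0.89, -1.32, -0.74 and -0.86 at 4 h. It was 2.45-fold higher (1.29, SE 0.151, adjusted p = 6.75e-05) with no overlap. Tsc22d3, which encodes the anti-inflammatory protein GILZ, had 4.29, 4.34 and 4.47 at 8 h, against 3.11, 3.54, 3.70 and 3.85 at 4 h, and rose by 0.82 (adjusted p = 0.00843). Glul, glutamine synthetase, had 3.91, 4.04 and 4.24 at 8 h, against 3.37, 3.41, 3.47 and 3.36 at 4 h, and rose by 0.66 (adjusted p = 0.000341). In each of these genes all 8 h arrays lay above all 4 h arrays. A dimmer probe of Glul gave 0.20, and with it the call was lost. Map3k6, a stress kinase gene, rose by 0.74, Angptl4, a lipase inhibitor, by 0.73, and the sulfotransferase Sult1a1 by 0.54 (adjusted p = 0.000924, 0.00701 and 0.00607).

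The receptor gene itself, Nr3c1, had 2.73, 2.64 and 2.48 at 8 h, against 2.70, 2.63, 2.59 and 2.87 at 4 h, which overlap (-0.08, SE 0.0914, adjusted p = 0.642). Klf15 had 2.98, 2.69 and 3.02 at 8 h, against 2.0, 1.95, 2.57 and 2.48 at 4 h. Its arrays did not overlap, but the difference of 0.65 (SE 0.225, adjusted p = 0.158) did not pass the test over all genes. In the knockout, Klf15 averaged -0.14 at 8 h and -0.67 at 4 h after saline, below every wild-type saline array. Klf9, another factor of that family, differed by 0.38 (adjusted p = 0.167). Second, dimmer probes gave 0.74 for Klf9 and 0.41 for Klf15.

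Several of the largest rises were metabolic or signalling genes. Gldc, the glycine decarboxylase of the glycine cleavage system, had -4.76, -4.56 and -4.39 at 8 h, against -6.64, -6.31, -6.12 and -6.70 at 4 h. It was 3.66-fold higher (1.87, SE 0.223, adjusted p = 6.75e-05) and all 8 h arrays were brighter. Rasd1, a Ras-related gene named for its induction by dexamethasone, was 2.28-fold higher (adjusted p = 0.0263), and Tat, the liver enzyme tyrosine aminotransferase, 2.16-fold higher (adjusted p = 0.0384). With slide as a fixed block both calls were lost, and they were lost under 10 other settings in all for Rasd1 and 13 for Tat. The orphan receptor gene Gpr20 and Doc2b, a calcium sensor of exocytosis, were not well above background on any 4 h array. With 4 h values raised to at least each array's dimmest signal well above background, Gpr20 was 1.91-fold and Doc2b 1.79-fold higher. These are bounds for this scaling only. The limma fit, without that floor, gave adjusted p = 0.000924 for Gpr20 and 0.0138 for Doc2b. Those calls were lost under 4 and 6 other settings, with a lowest difference of 0.13 for each gene. Bcl2l1, which protects cells from apoptosis, rose by 0.75 and the amino acid transporter gene Slc38a4 by 0.90 (both adjusted p = 0.000924). Dimmer probes gave 0.37 and 0.32 for Bcl2l1 and 0.63 for Slc38a4, and with the dimmest probe both calls were lost. Mapk4, an atypical MAP kinase gene, rose by 1.11 (adjusted p = 0.00421) and the protease inhibitor gene Eppin by 1.07 (adjusted p = 0.0106). The probe of Mapk4 is dim, and its call was lost under 5 other settings, with a lowest difference of 0.17. The largest fitted difference among called genes, 3.02 for the olfactory receptor gene Olfr1451, had an adjusted p of 0.0496, came from a dim probe of a family with similar sequences, and lost its call under 16 other settings. The dim gene Tsx (1.47, adjusted p = 0.0478) lost its call under 16 as well.

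The largest fall was in Spon2, which encodes a secreted matrix protein of innate immunity. Its levels were -1.69, -1.64 and -2.19 at 8 h, against 0.16, 0.27, 0.02 and -0.36 at 4 h. All 8 h arrays were far dimmer, and Spon2 was 3.64-fold lower at 8 h (-1.86, SE 0.205, adjusted p = 4.11e-05), with -1.51 on a second probe. Nxph3, a neurexophilin, had -0.08, 0.23 and -0.36 at 8 h, against 1.02, 1.14, 1.41 and 1.16 at 4 h, and was 2.38-fold lower (adjusted p = 0.000509). Tnc, tenascin C of the matrix, fell by 0.92 (adjusted p = 0.0146), the sialyltransferase gene St6galnac3 by 0.85 (adjusted p = 0.0015) and the adhesion gene Nrcam by 0.75 (adjusted p = 0.000822). Vapb, a protein of endoplasmic reticulum contacts, had 2.52, 2.42 and 2.10 at 8 h, against 3.64, 4.11, 4.16 and 4.33 at 4 h (-1.71, adjusted p = 0.036). The call was lost under 8 other settings, among them 6 of the 7 fits without 1 array. Its probes disagree: the 2 dimmer ones gave 0.11 and -0.24. Both probes of Chmp4b, a membrane-scission gene, were lower (-0.74 and -1.63, adjusted p = 0.0234 for the brighter), while for the endothelial protocadherin Pcdh12 the brighter probe fell by 0.73 (adjusted p = 0.0384) and the dimmer one gave 0.09. Cryba4, Npm3, Psma6, Jmjd4 and Crcp complete the 15 largest falls, between -0.88 and -0.75. The calls of these 5 genes, Chmp4b and Pcdh12 were lost under 6 to 13 other settings, including 5 or 6 of the 7 fits without 1 array, and those of Jmjd4 and Pcdh12 also with slide as a fixed block.

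The knockout lungs gave the same time comparison on other arrays. Their ratio of bright to dim probes (log2, centred over the series) was -0.213 to -0.115 at 8 h, against -0.37 to -0.222 at 4 h. The part of that shift in the knockout calls was not tested. In the knockout, 157 genes were called between 8 h and 4 h saline (1.02% of genes). Of the 223 wild-type calls, 195 (87.4%) had the same sign in the knockout, against 46.2% of all genes, and 68 were called in both in the same direction, which is 30.5% of the wild-type calls and 43.3% of the knockout calls. Genes called higher in wild type had a median difference of 0.54 in wild type and 0.32 in the knockout, and genes called lower had -0.55 in wild type and -0.19 in the knockout. Per2 (1.11), Cry1 (1.14), Arntl (-0.88), Nr1d1 (-0.95), Spon2 (-2.06), Fam107a (1.53) and Gldc (1.35) were called in the knockout in the wild-type direction. The glucocorticoid-induced list had 8 of 32 members called higher in the knockout (0.671% of all genes) and a median of 0.35. Gpr20 (0.08), Mapk4 (-0.16), Vapb (0.20), Psma6 (0.09) and Npm3 (0.18) were not called there.

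A test of the difference between the genotypes' time effects called 1 gene (0.00651% of genes, 1924 at an unadjusted p under 0.05), the kinase gene Map3k13. It had -4.61, -4.59 and -4.44 at 8 h, against -4.94, -4.68, -5.13 and -5.14 at 4 h in wild type (0.42, adjusted p = 0.0246), and differed by -0.43 in the knockout (adjusted p = 0.0265). Its wild-type call was lost under 12 other settings, among them slide as a fixed block and 5 of the 7 fits without 1 array. The call of the genotype difference was lost under quantile normalization, median scaling and slide as a fixed block, each with 0 genes. Reps2 (0.75 in wild type, -0.10 in the knockout) and Fmnl3 (-0.46 in wild type, 0.10 in the knockout) were among the lowest p-values of the genotype test but were not called in it. The wild-type call of Reps2 was lost under 5 other settings.

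**Figure D3:**
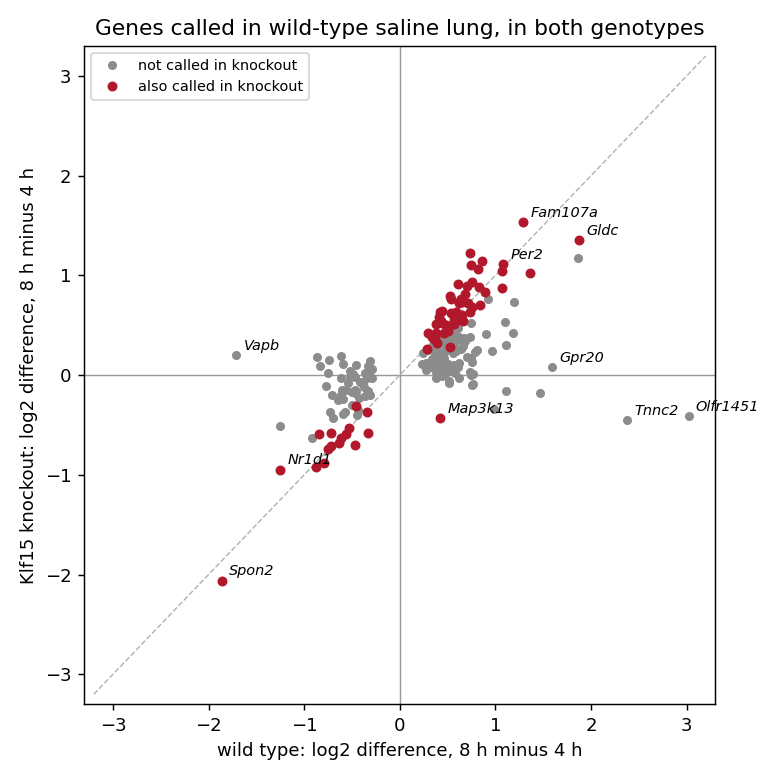
Each point is 1 of the 223 genes called between 8 h and 4 h saline in wild-type lung, with its log2 difference in wild type on the horizontal axis and in Klf15 knockout lung on the vertical axis; red points were also called in the knockout and the dashed line marks equal differences. Most points lie in the quadrants of equal sign (195 of 223), while Vapb, Gpr20, Tnnc2 and Olfr1451 lie near or across 0 in the knockout.

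In wild-type lung 1917 genes (12.5%) were called between 8 h and 4 h of dexamethasone, and the time difference itself differed between saline and dexamethasone for 947 genes (6.17%). Fam107a rose by 1.29 under saline and differed by -0.98 under dexamethasone, Glul by 0.66 and -0.41, Bcl2l1 by 0.75 and -0.76, and Mcf2l, a guanine nucleotide exchange factor, by 0.70 and -0.62. For these 4 genes the test of the difference gave adjusted p = 1.13e-06, 1.19e-05, 4.23e-06 and 1.32e-06. The smallest p-values of that test belonged to Fat3, a cadherin gene, at 0.03 under saline and -2.31 under dexamethasone (adjusted p = 4.08e-08), and Sh3rf2, at -0.17 and 1.90 (adjusted p = 5.16e-08). Klf15 had 0.65 under saline and -0.51 under dexamethasone (adjusted p = 0.03). The glucocorticoid-induced list as a whole had 8 members called higher and a median of 0.37 under saline, against 1 called higher (5.87% of all genes), 15 called lower (6.62% of all genes) and a median of -0.43 under dexamethasone. Among clock genes, Cry1 (0.86 under saline, 0.74 under dexamethasone) and Nr1d1 (-1.25 and -1.81) did not pass the test of a difference, while Arntl (-0.79 and 0.40, adjusted p = 0.00203), Per3 (0.74 and -0.16, adjusted p = 0.00336) and Tef (0.46 and -0.25, adjusted p = 0.00133) did.

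**Figure D4:**
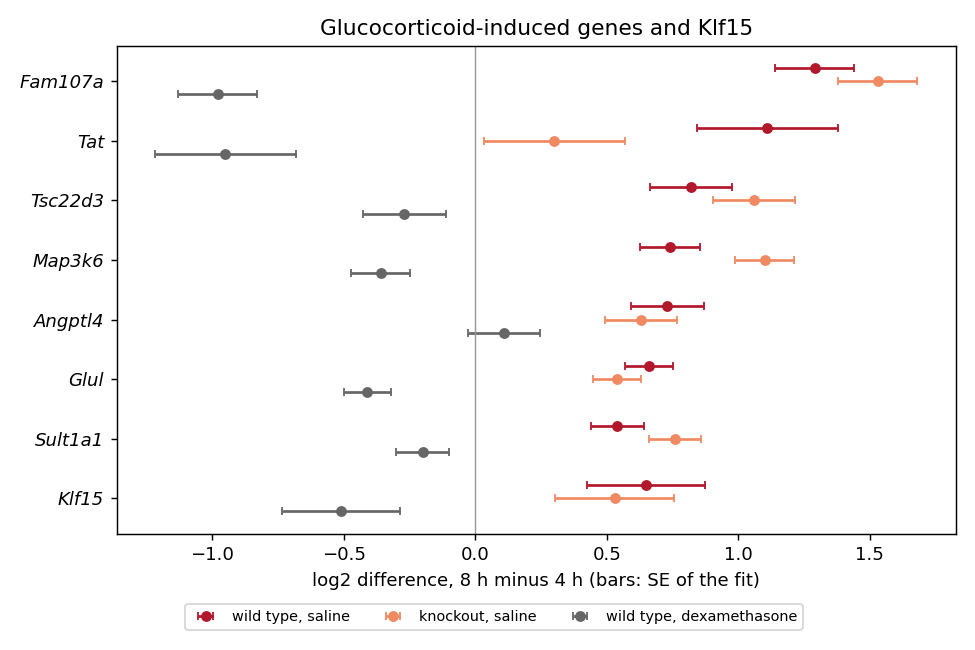
Points are log2 differences between 8 h and 4 h for 7 called glucocorticoid-induced genes and Klf15, in wild-type saline, knockout saline and wild-type dexamethasone lungs, with bars for the SE of the fit. All 8 genes lie above 0 under saline in both genotypes, and all but Angptl4 lie below 0 under dexamethasone.

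Dexamethasone at 4 h, measured in knockout mice on arrays that the wild-type saline comparison does not use, called 23.8% of genes higher and 18.5% lower than saline at 4 h. This comparison was added after results were seen. The ratio of bright to dim probes was -0.0553 to 0.161 on its dexamethasone arrays, against -0.37 to -0.222 on its saline arrays. The part of that shift in these calls was not tested. Of the 159 genes higher at 8 h of saline, 117 (73.6%) were called higher by dexamethasone and 8 lower, and the 117 make up 3.2% of the genes that dexamethasone raised. Of the 64 lower genes, 28 (43.8%) were called lower by dexamethasone and 14 higher. Gldc (3.67), Fam107a (4.31), Slc38a4 (3.13) and Tat (2.79) were among the genes raised. So were the clock or cycling genes Per2 (0.83), Cry1 (0.53), Usp2 (1.18), Fmo2 (0.86) and Lonrf3 (1.39). Hlf (-0.30) was called lower, while Per3 (0.10, adjusted p = 0.566), Wee1 (-0.23) and Cys1 (0.03) were not called.

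Most other gene groups had few or no calls, beside 1.45% of all genes called and 17% at an unadjusted p under 0.05. Heat shock and chaperone genes had 0 of 19 called (7 lower at an unadjusted p under 0.05, median -0.18), with Hsp90ab1 at -0.44 (adjusted p = 0.11). The endoplasmic reticulum stress list had 0 of 21 called, with Hspa5 at -0.37 (adjusted p = 0.11). The cold-inducible genes Cirbp (0.15) and Rbm3 (0.06) did not pass the test. Of 17 cytochrome P450 and partner genes, 2 were called higher, Fmo2 and Cyp2b10 (0.50, adjusted p = 0.0102). Of 21 apoptosis regulators, Bcl2l1 and Birc2 (0.34) were higher and Bid lower (-0.50), but the calls of Birc2 and Bid were lost under 16 and 8 other settings. Of 31 collagen and matrix genes, Timp3 was higher (0.33) and Adamts1 (-0.60), Col5a1 (-0.43) and Tnc lower, but a dimmer probe of Col5a1 gave 0.83, and its call was lost under 10 other settings and that of Timp3 under 7. Cholesterol genes had 1 of 21 called, Hmgcs1 (-0.47, adjusted p = 0.0136, lost under 5), and fatty acid use 2 of 25, of which Ppargc1b rose by 0.46 (lost under 8). The lung chemokine gene Cxcl15 fell by 0.72 (adjusted p = 0.0201, lost under 6). Of 26 interferon-stimulated genes 1 was called, Ifit3 (0.45, adjusted p = 0.0465), while the list's median was -0.20, with 6 genes lower at an unadjusted p under 0.05. Of 14 B-cell genes 1 was called, Vpreb3 (0.73, adjusted p = 0.0384), with a list median of -0.20. The calls of Ifit3 and Vpreb3 were lost in each of the 7 fits without 1 array and with slide as a fixed block.

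Alveolar type 2 markers averaged 4.22 to 4.34 at 8 h, against 4.25 to 4.46 at 4 h, with 0 of 11 called, and endothelial markers 3.11 to 3.26 at 8 h, against 3.19 to 3.31 at 4 h, with 0 of 16 called. Club and ciliated cell markers averaged -0.09 to 1.06 at 8 h, against -0.04 to 1.10 at 4 h, with 0 of 13 called. Lists for T cells, NK cells, neutrophils, macrophages and mast cells had 0 members called. With 1.45% of all genes called, a count of 0 in lists this short does not show equal levels. Of 14 NK and cytotoxic genes 1 had a positive difference (median -0.31). That list averaged -2.33 to -2.23 at 8 h, against -2.17 to -1.84 at 4 h. Of 9 MHC class II presentation genes 0 were called and 0 had a positive difference (median -0.27). Their averages, 1.89 to 2.17 at 8 h and 2.04 to 2.65 at 4 h, overlapped. Neutrophil markers were high on array 34 of the 4 h group (0.79, against -2.31 to -0.87 on its other arrays). Skeletal muscle markers averaged -3.75, -1.27 and -2.77 at 8 h, against -3.53 to -2.99 at 4 h, high on array 38. Of the 14 measured, 1 was called, Tnnc2, with -2.93, 0.99 and -1.40 at 8 h, against -3.95, -2.78, -3.46 and -3.79 at 4 h (2.38, adjusted p = 0.0163), which overlap. The list's median was 0.54, and 0.05 without array 38. Heart muscle markers averaged -2.00, 0.34 and -1.70 at 8 h, against -1.31 to 0.22 at 4 h, again high on array 38. Of the 15 measured, 0 were called and 1 had a positive difference. Their median was -0.88, and -1.67 without array 38. The part of muscle tissue in other genes was not tested. Without array 38 there were 170 higher and 136 lower genes, and 165 of the 223 calls were kept.

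**Figure D5:**
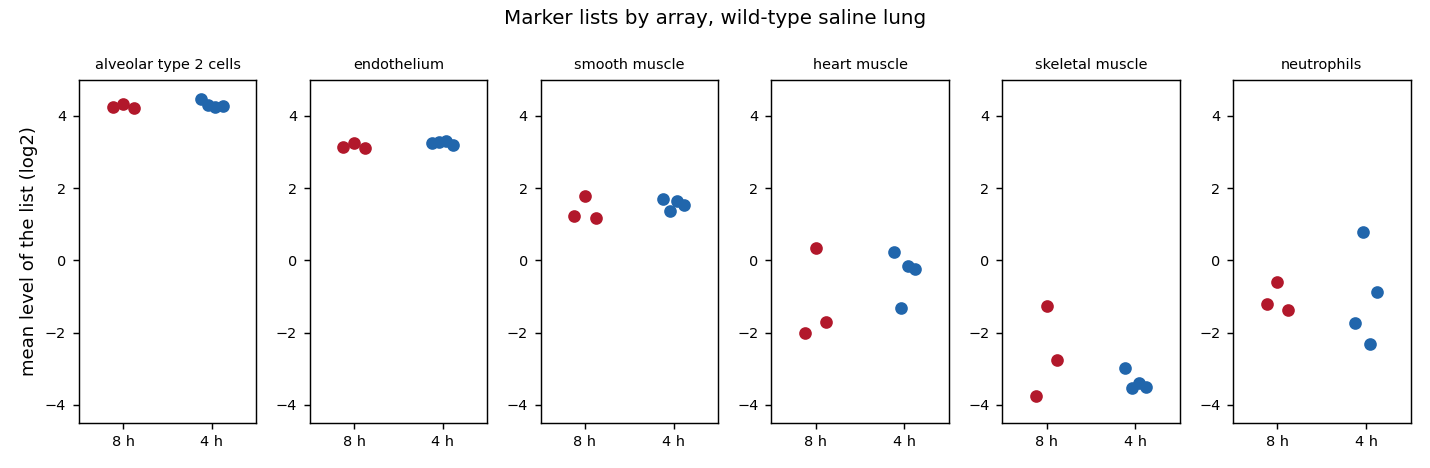
Mean log2 level of 6 marker lists on each of the 3 arrays at 8 h and the 4 arrays at 4 h after saline. Alveolar type 2 and endothelial markers lie together at all arrays, while 1 array at 8 h is high for skeletal muscle (-1.27) and 1 array at 4 h is high for neutrophil markers (0.79).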

How the data were processed

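Lung RNA was measured on single-colour Agilent 4x44K arrays. The deposited scanner files hold spot intensity values (background-subtracted and detrended processed signal), which the file headers credit to version 10.7.3.1 of Agilent's Feature Extraction and the submitters' processing notes to version 10.6. The deposited series table holds log2 values for which the sources used here name no normalization; that table served as an alternative only. From the scanner files, control and outlier spots were left out, spots of a probe were averaged, and the log2 of the processed signal was scaled to each array's 75th percentile. A probe was kept if 3 or more arrays of any group flagged it as well above background (33936 probes). Probes were named by accession through a RefSeq gene table (GRCm38.p6), which gave 1 gene for 24844 of the 41174 probes and none for 16330. The design build in the headers is mm9, so no array coordinates are printed. The brightest kept probe stood for a gene, which left 15351 genes, 433 of them with a missing value on at least 1 array. Where a value is missing (Dbp, Timp3 and Cxcl15 on array 33) the fit used the other arrays.

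One limma 3.58.1 fit (lmFit, eBayes; R 4.3.3) with 8 group means over 29 arrays gave every contrast, with Benjamini-Hochberg adjustment. On 20 simulated data sets of 15351 genes for the 8 h against 4 h saline comparison, planted log2 changes of 0.5, 1, 1.5 and 2 were recovered in 46.7, 77.8, 85.3 and 89.4% of cases, and 5.05% of calls were false. This test drew normal noise independently for each gene and array, without slide effects or a shift by brightness. It therefore does not give the share of false calls among the genes reported here. A first version of that test, with 1 simulation, had required 90% recovery at a change of 2 and did not reach it; missed genes had a median residual SD of 1.01, against 0.161 for recovered ones, so recovery is reported and no longer required. The number of arrays limits precision.

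The comparison, lists and named genes were chosen with earlier results of these data known. Named genes are Klf15, Nr3c1, the clock and cold-inducible lists, up to 6 members of other lists with the lowest p, the 15 largest rises and falls and the 8 lowest p-values in each test of a difference; the rule's genes correlated with the top clock gene were not computed, because the arrays form 2 groups. Some genes the rule takes are not reported here. Klf9 was named for its family. Array pairs of 1 group correlated at r = 0.971 to 0.992 and none were identical.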

Additional observations from a re-analysis of the deposited data

Results flagged for a closer look

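On 1 array of the 4 h group, values lay far from the other 3, by Dixon's criterion, for 5 named genes: Csnk1e (3.38), Tsx (-6.64), Cryba4 (-4.17) and Bid (-0.08) on array 34, and Cirbp (3.22) on array 35. Chance alone gives such a gap in about 1 of 20 groups. The checks of settings covered 88 named genes, and among that many some such gaps arise by chance. Array 34 was also the one with the highest neutrophil marker level, 0.79; the part of either in the other was not tested.

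The time difference (8 h minus 4 h saline) of Map3k13 was 0.85 higher in wild type than in knockout. All values below are the wild-type time difference under saline minus that under dexamethasone, each with an adjusted p under 0.05 by limma. Among glucocorticoid targets and related genes, the difference was positive for Fam107a (2.27), Tat (2.06), Map3k6 (1.10), Tsc22d3 (1.09), Glul (1.07), Sult1a1 (0.74), Klf15 (1.16), Pdk4 (1.18), Rasd1 (1.92), Bcl2l1 (1.51) and Slc38a4 (1.39). It was negative for the receptor gene Nr3c1 (-0.54).

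Among clock and cycling genes, it was positive for Usp2 (1.23), Per1 (0.92), Per3 (0.90), Dbp (0.77), Tef (0.71), Per2 (0.68) and Cry2 (0.49), and negative for Arntl (-1.19), Ppp1r3c (-0.53) and Clock (-0.50).

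Among other named genes, it was positive for Gldc (2.49), Tnnc2 (2.48), Fat3 (2.34), Slc25a33 (1.54), Fam117b (1.39), Mcf2l (1.32), Eppin (1.19), Reps2 (1.01), Cdc6 (0.67), Klhl24 (0.60) and Timp3 (0.35). For Gpr20 (2.94) and Doc2b (2.66) it was positive as well, but neither was well above background on any wild-type 4 h saline array. It was negative for Sh3rf2 (-2.07), Pcdh12 (-1.60), Spon2 (-1.36), Nxph3 (-1.31), Hmgcs1 (-0.74) and Fmnl3 (-0.48).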

How the results depend on the processing

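The number of genes called between 8 h and 4 h depended on the settings. Against 159 higher and 64 lower genes as reported, the totals of higher genes were 93 under quantile normalization, 59 under normexp with quantile normalization, 28 under median scaling (a shift of -0.14 in the median of all genes, lower genes 72) and 86 from the deposited table. Of the 223 calls, these settings kept 146, 98, 80 and 115 in that order. Array weights called 982 higher and 976 lower genes, slide as a random block (consensus correlation 0.41) called 333 and 173, and the 7 arrays alone called 0 and 0, with 2504 genes at an unadjusted p under 0.05. Leaving out 1 array gave 35 to 170 higher and 12 to 136 lower genes, the fewest without array 39 and the most without array 38 of the 8 h group; without array 33 of the 4 h group there were 72 and 39, and without array 37 there were 76 and 33. In all 7 of these fits 33 higher and 10 lower genes kept their call, among them Per2, Per3, Cry1, Usp2, Fam107a, Glul, Gldc, Gpr20, Nrcam, Nxph3 and Spon2. The cause of these changes was not tested.

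The genotype difference of 1 gene became 0 under quantile normalization, normexp, median scaling, trend and robust variance, slide as a fixed block, the deposited table and the bright to dim probe ratio as a covariate, 5 with only the groups compared and 1946 under array weights, and ran from 0 to 2 when 1 array was left out. The 947 genes with a saline against dexamethasone difference became 549 under median scaling, 610 with only the groups compared, 1624 under array weights, 1525 and 1714 with slide as a fixed and a random block, and 619 to 1117 when 1 array was left out. Pcdh12 turned to 0.09 with its dimmest probe, and Col5a1 to 0.20 with the mean of its probes and 0.83 with the dimmest. No paired analysis was possible because the groups compared share no replicate number.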
